A study of Mus musculus with 13 samples.

Results

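RNA of sorted heart muscle nuclei was compared between female mice that received a vector carrying human PR, the progesterone receptor, and female mice that received the same kind of vector without an insert. The comparison holds the 7 female libraries of the 13 in the series, chosen by sex and vector from the sample labels, and covers 16125 genes that passed a filter on low counts out of the 55536 in the count table. All animals were C57BL/6J mice that received 1 intraperitoneal injection of adeno-associated virus serotype 6 at postnatal day 1, and ventricles were collected at postnatal day 56. The 4 control-vector libraries are called Con_F 1, 2, 3 and 4, and the 3 libraries of the PR vector are called PGR_F 1, 2 and 4, numbered as the submitters numbered them. Each library pooled 3 to 6 whole ventricles, and nuclei were sorted for Pcm1, a protein of the centriolar satellites that marks the nuclei of heart muscle cells. The 6 male libraries, 3 for each vector and treated in the same way, serve for the comparison between the sexes. They also enter the filter, the scaling and the shared estimate of spread, so every female p-value rests in part on them. Both groups carried a vector, so neither shows the uninfected heart, and no source used here gives the promoter that drove the insert. Nothing in the labels says that libraries of one group came from separate litters or injections, so p-values measure the spread between these pooled libraries.

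The progesterone receptor is a nuclear receptor: it lies in a complex with chaperones and co-chaperones such as the immunophilin FKBP4 until progesterone binds, and then binds DNA at elements that it shares with the glucocorticoid receptor. In reproductive tissue its targets include genes of growth, adhesion and secreted signalling. Heart muscle of the adult draws most of its energy from fatty acid oxidation, and the passage from the fetal to the adult heart is marked by a move from glucose to fatty acids and by exchange of fetal for adult isoforms of sarcomere proteins.

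Library totals ranged from 37646536 to 58948135 counts in Con_F and from 31761146 to 55497850 in PGR_F. Genes of the sarcomere list summed to between 77340 and 94290 CPM (counts scaled to a common library size) per library, against 87.7 to 161.3 CPM for 27 endothelial markers, 166.9 to 346 CPM for 28 fibroblast and matrix markers, 82.04 to 98.94 CPM for 22 macrophage markers, of which Itgam had 0 counts in all 7 libraries, and 0.7463 to 2.962 CPM for 16 lymphocyte markers. Pcm1 itself had 107, 133, 103 and 118 CPM in Con_F and 139, 127 and 116 CPM in PGR_F. Mouse Pgr was nearly absent and did not pass the filter: each Con_F library held 1 count, and PGR_F 1, 2 and 4 held 1, 5 and 6. At 1 count PGR_F 1 was level with the controls, so the higher counts of PGR_F came from PGR_F 2 and 4. The vector carried the human gene, which is not a feature of the count table. Whether reads of the insert were counted at mouse Pgr was not tested, so these counts cannot be taken as a measure of the insert.

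Con_F 4 stood apart from the other control libraries. Its mean correlation over genes was 0.9888 with Con_F 1 to 3 and 0.9908 with PGR_F, whereas Con_F 1, 2 and 3 each correlated more, on average, with the other controls. Con_F 1 was almost as far from the other controls, with a mean of 0.9891. In single pairs Con_F 1 correlated most with PGR_F 2 (0.9901) and Con_F 3 most with PGR_F 4 (0.991). Con_F 4 held 159 counts of 4 Y-linked genes, 1.03% of the male level (95% exact Poisson interval 0.876 to 1.20%, counting error only). The other 6 female libraries had 0.0115 to 0.115%. For 57.4% of all tested genes Con_F 4 lay closer to the PGR_F mean than to the mean of the other controls. PGR_F 1 also lay far from the rest, with a first principal component score of 38.8 against a range of -27.45 to 5.653 in the other 6. Results below come from a fit with all 7 female libraries and a fit without Con_F 4.

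**Figure D1:**
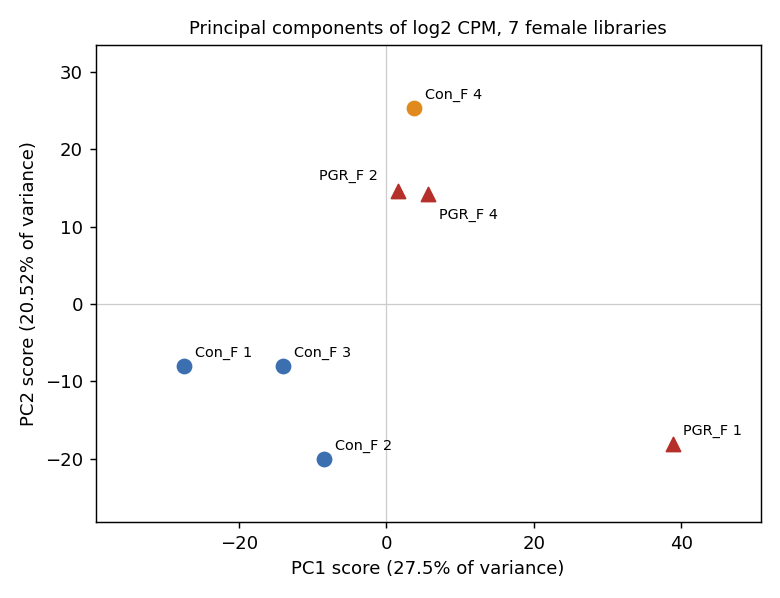
Scores of the 7 female libraries on the first (x axis, 27.5% of variance) and second (y axis, 20.52%) principal components of log2 CPM; circles are Con_F (Con_F 4 in orange) and triangles PGR_F. Con_F 4 sits at 25.37 on the second component, near PGR_F 2 and PGR_F 4 at 14.64 and 14.28 and away from Con_F 1 to 3 at -20.06 to -8.045, and PGR_F 1 sits alone at 38.8 on the first.

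With all 7 libraries no gene passed an adjusted p of 0.05 in edgeR's quasi-likelihood test with Benjamini-Hochberg adjustment (0 of 16125). The unadjusted p was under 0.05 for 935 genes that were higher with the PR vector (5.8% of those tested) and 830 that were lower (5.15%). DESeq2 called 81 genes on the same libraries and limma-voom called 0. The smallest adjusted p was 0.0659, for Pmepa1, and the groups did not overlap for 672 higher genes (4.17%) and 656 lower genes (4.07%). In both directions together, 10.9% of genes had an unadjusted p under 0.05, and 50.7% of genes lay above 0 and 49.3% below.

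Without Con_F 4, 20 genes passed (0.124% of those tested), of which 8 rose with the PR vector (0.0496%) and 12 fell (0.0744%). Among those that rose were the protease inhibitor Serpine2, the copper-carrying ferroxidase ceruloplasmin (Cp), the matrix proteoglycan osteoglycin (Ogn) and the phosphodiesterase Smpdl3a. The transforming growth factor beta (TGF-beta) regulators Pmepa1, Smad7 and Ski fell, as did the slow skeletal troponin T gene Tnnt1, the fibrillar collagen gene Col11a2, the kinase gene Akt1 and the small MAF factor gene Mafg. Library totals in place of TMM scaling gave 45 calls, 36 higher and 9 lower, so the split between directions depends on the scaling. The calls also rest on single libraries: leaving out Con_F 1 or PGR_F 1 as well gave 0, leaving out PGR_F 4 gave 3 and leaving out PGR_F 2 gave 4. At an unadjusted p under 0.05 without Con_F 4, 8.29% of genes were higher and 7.24% lower, 15.5% in all. The groups did not overlap for 9.38% of genes that were higher and 8.97% that were lower, and 50.9% of genes lay above 0 and 49.1% below. The fits with and without Con_F 4 share 6 female libraries, and their values are set side by side for that reason.

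Pmepa1, which codes for a membrane protein that binds receptor-regulated SMADs and holds back TGF-beta signalling, lies on chromosome 2 from 173224458 to 173276533 (GRCm38, minus strand). Its levels were 49.3, 47.2, 46.5 and 43.0 CPM in Con_F 1 to 4 and 31.8, 34.5 and 34.1 CPM in PGR_F 1, 2 and 4. All 3 PGR_F libraries were below all 4 controls, with Con_F 4 the lowest control. Pmepa1 fell by 0.51 ± 0.07 (SE) on the log2 scale without Con_F 4 (edgeR adjusted p = 0.0148), and with all 7 libraries the value was -0.47 ± 0.07 (adjusted p = 0.0659).

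Smad7, the inhibitory SMAD that blocks the TGF-beta receptor, lies on chromosome 18 from 75367529 to 75395935 and had 41.2, 32.7, 29.7 and 20.4 CPM in Con_F and 19.2, 19.6 and 20.7 CPM in PGR_F. Con_F 4 lay within the PGR_F range and the other 3 controls above it. The decrease was 0.80 ± 0.11 on the log2 scale without Con_F 4 (edgeR adjusted p = 0.0148), and the value with all 7 libraries was -0.65 ± 0.17 (adjusted p = 0.302).

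Ski, the co-repressor that binds SMADs on DNA, lies on chromosome 4 from 155154075 to 155222592 and had 240, 212, 214 and 131 CPM in Con_F and 154, 146 and 143 CPM in PGR_F. Con_F 4 was lower than every PGR_F library, and the other controls were higher than all of them. The log2 difference was -0.59 ± 0.10 without Con_F 4 (edgeR adjusted p = 0.034) and -0.43 ± 0.16 with it (adjusted p = 0.364).

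These 3 genes belong to a list of 40 TGF-beta pathway genes, of which 37 were tested. With all 7 libraries 24 of the 37 lay below 0 and 6 of these had an unadjusted p under 0.05, against 5.15% of all genes, while none was higher at that level. Without Con_F 4 the count was again 6 lower, with 1 higher, against 7.24% and 8.29% of all genes. The higher one was the receptor gene Tgfbr1 (log2 difference 0.21, edgeR unadjusted p 0.0491). Pmepa1, Smad7 and Ski were among the 6 in both fits. The list was written with earlier results of these data known and holds these called genes. Its count is therefore no separate support for them. The list's median log2 difference was -0.04 with all 7 libraries and -0.06 without Con_F 4, close to the 0.0033 and 0.0052 of all tested genes. With library totals as the scaling the median of all genes moved to 0.061 and 0.067, and the list's medians, just above 0, were again below it. The ligand genes Tgfb1, Tgfb2 and Tgfb3 were at 0.15, -0.16 and 0.12 without Con_F 4, and the signal-carrying Smad2, Smad3 and Smad4 at -0.02, -0.01 and 0.02, none with an unadjusted p under 0.05. Ccn2, a direct target of the pathway, was at 0.21, also without passing.

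Of the other genes that fell, Col11a2, a chain of type XI collagen, had 10.8, 7.42, 9.43 and 5.08 CPM in Con_F and 3.71, 4.30 and 4.54 CPM in PGR_F. The groups did not overlap with or without Con_F 4, which was the lowest control. Its log2 difference was -1.13 ± 0.16 without Con_F 4 (edgeR adjusted p = 0.0148) and -0.97 ± 0.21 with it (adjusted p = 0.188). Tnnt1 codes for troponin T of slow skeletal muscle, and its levels were 12.3, 11.2, 11.4 and 7.14 CPM in Con_F against 5.96, 7.26 and 5.99 CPM in PGR_F. Con_F 4 lay between PGR_F 2 and the other 2 PGR_F libraries. Tnnt1 fell by 0.86 ± 0.12 on the log2 scale without Con_F 4 (adjusted p = 0.0148), and the value with it was -0.72 ± 0.16 (adjusted p = 0.225).

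Mafg, a small MAF protein that pairs with NRF2 at antioxidant response elements, had 76.9, 68.6, 75.4 and 49.4 CPM in Con_F and 44.9, 40.1 and 49.8 CPM in PGR_F. Con_F 4 was within the PGR_F range. Akt1, the kinase downstream of insulin and growth factor receptors, had 74.7, 56.3, 76.9 and 44.9 CPM in Con_F and 42.2, 49.5 and 44.9 CPM in PGR_F, again with Con_F 4 inside the PGR_F range. Mafg fell by 0.71 ± 0.09 and Akt1 by 0.60 ± 0.11 on the log2 scale without Con_F 4 (edgeR adjusted p = 0.0148 and 0.0439). With all 7 libraries the values were -0.59 ± 0.13 and -0.47 ± 0.14 (adjusted p = 0.188 and 0.322). Nxph1, a secreted ligand of neurexins, had 2.27, 2.15, 2.68 and 1.72 CPM in Con_F and 0.936, 0.938 and 0.987 CPM in PGR_F. The PGR_F libraries were close to each other and below every control, and the log2 difference was -1.30 ± 0.21 without Con_F 4 (adjusted p = 0.034) and -1.21 ± 0.21 with it (adjusted p = 0.133).

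The remaining genes that fell without Con_F 4 were Tnfrsf25, a death-domain receptor (-1.10), Hdgf, a growth factor (-0.60), Bop1, which takes part in assembly of the large ribosomal subunit (-0.55), and Kansl2, a subunit of a histone acetyltransferase complex (-0.42). Their adjusted p ranged from 0.0397 to 0.0446. In the fit of all 7 libraries their values were -0.94, -0.49, -0.44 and -0.32, with adjusted p from 0.235 to 0.322. Mafg, Akt1, Nxph1 and Kansl2 share part of their interval with 1 or more genes on the same strand, so reads from the shared stretch may not belong to them alone.

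Serpine2, which codes for the thrombin and urokinase inhibitor protease nexin 1, lies on chromosome 1 from 79794197 to 79861180. It had 7.52, 8.98, 9.11 and 16.0 CPM in Con_F and 20.8, 16.8 and 18.5 CPM in PGR_F. The groups did not overlap, and Con_F 4 was far closer to the PGR_F libraries than to the other controls. Serpine2 rose by 1.13 ± 0.16 on the log2 scale without Con_F 4 (2.19-fold, edgeR adjusted p = 0.0148), and with all 7 libraries the difference was 0.85 ± 0.23 (adjusted p = 0.302).

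Cp lies on chromosome 3 from 19957054 to 20009145 and had 41.7, 44.3, 35.6 and 30.7 CPM in Con_F and 63.9, 69.5 and 57.1 CPM in PGR_F. All PGR_F libraries were above all controls. Con_F 4 was the control farthest from them, and Cp was the only 1 of the 20 called genes for which Con_F 4 did not lie toward PGR_F. Its log2 difference was 0.65 ± 0.11 without Con_F 4 (edgeR adjusted p = 0.0411) and 0.74 ± 0.12 with it (adjusted p = 0.0853).

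Wdr17, which codes for a WD-repeat protein, had 0.554, 0.560, 0.622 and 1.00 CPM in Con_F and 1.97, 1.67 and 1.51 CPM in PGR_F, the largest rise among the 20 (2.94-fold, 1.56 ± 0.25 on the log2 scale, edgeR adjusted p = 0.034, without Con_F 4). Ogn had 15.1, 19.0, 16.9 and 23.3 CPM in Con_F and 30.2, 30.6 and 22.9 CPM in PGR_F, so that Con_F 4 passed the lowest PGR_F library. Smpdl3a had 9.01, 9.92, 8.76 and 13.6 CPM in Con_F and 13.9, 14.4 and 15.2 CPM in PGR_F. Without Con_F 4, Ogn rose by 0.71 ± 0.11 and Smpdl3a by 0.65 ± 0.09 on the log2 scale. In the fit of all 7 libraries Wdr17 was at 1.33, Ogn at 0.59 and Smpdl3a at 0.50 (edgeR adjusted p = 0.188, 0.194 and 0.281). The membrane protein gene Tmem71 (0.96), Ccdc146, which codes for a coiled-coil protein (0.56), and the non-coding gene Gm5860 (0.59), named here only to complete the count, were the others that rose. Their values with all 7 libraries were 0.81, 0.50 and 0.57.

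**Figure D2:**
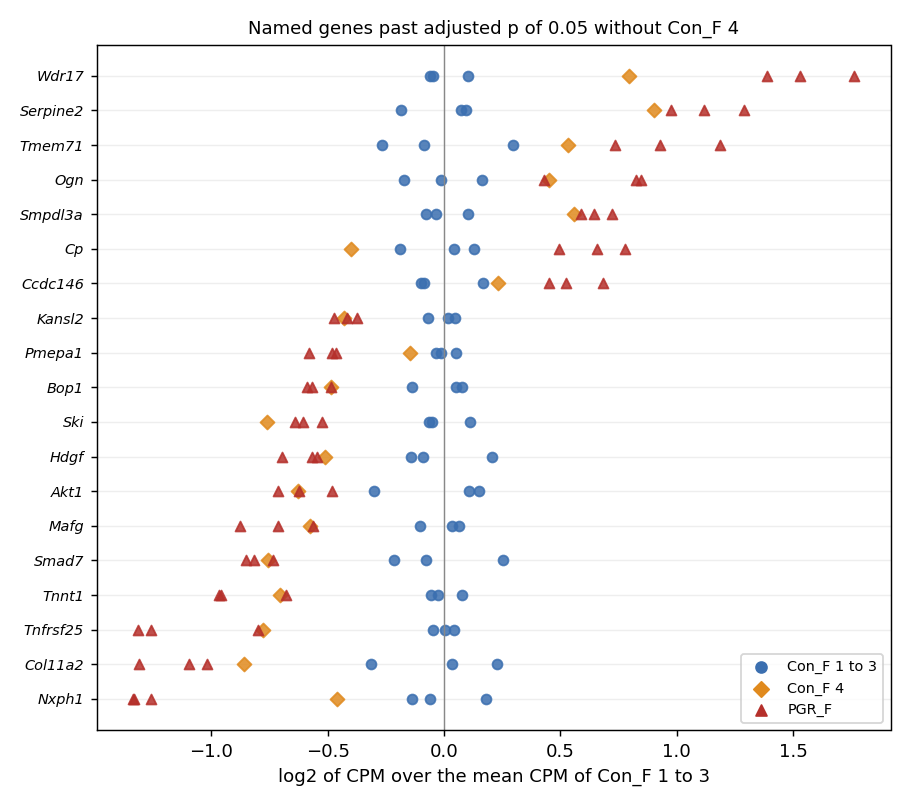
Level of each named gene past an adjusted p of 0.05 without Con_F 4, as the log2 of its CPM over the mean CPM of Con_F 1 to 3 (x axis), with 1 symbol per library. Con_F 4 (diamonds) lies on the PGR_F side (triangles) of the other controls (circles) for every gene shown except Cp.

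For 15 of the 20 called genes Con_F 4 was closer to the PGR_F mean than to the mean of the other controls. That share is a description, since leaving out this library is what allowed them to pass. With all 7 libraries the groups did not overlap for 12 of the 20, against 4.17% of all genes higher and 4.07% lower, and nothing is read from this, since 6 of these libraries chose the 20.

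The fold changes moved with base composition. With the genes in 5 equal bins by the GC content of their longest transcript, from the lowest to the highest, the median log2 difference with all 7 libraries was 0.08, 0.05, 0.01, -0.04 and -0.12. The 8 genes that rose without Con_F 4 were all in the 2 lowest bins, with a median GC content of 41.3%, and 11 of the 12 that fell were in the 2 highest, with a median of 55.25%, against 49.18% for all tested genes. The slope of log2 CPM on GC content was steepest in PGR_F 1 (-0.181 per 10 percentage points) and in Con_F 1 (0.150), the 2 libraries without which no gene passed. With a correction for GC content and gene length, added after seeing the data, 19 genes passed without Con_F 4 (0.118% of those tested), 11 higher (0.0682%) and 8 lower (0.0496%), and 10 of them were among the 20. All 20 kept their direction and an unadjusted p under 0.05 with the correction. Of the genes described above, Pmepa1, Smpdl3a, Serpine2, Mafg, Col11a2, Smad7, Tnnt1, Ogn, Tmem71 and Nxph1 passed in both fits.

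**Figure D3:**
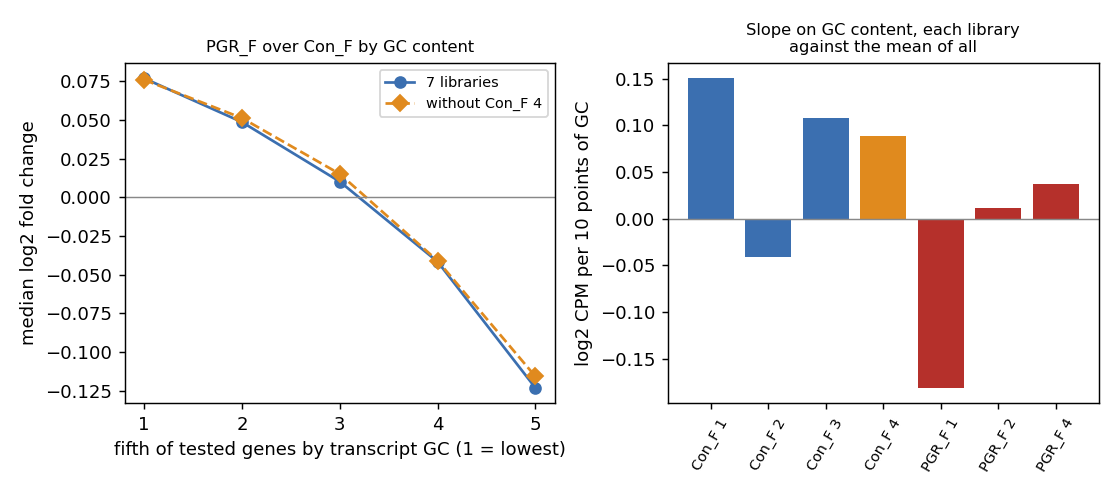
Left: median log2 fold change of PGR_F over Con_F (y axis) in 5 equal bins of the tested genes by transcript GC content (x axis), with all 7 libraries and without Con_F 4. Right: slope of each library's log2 CPM, relative to the mean of all libraries, on GC content. The medians go down from 0.08 to -0.12 and the slopes run from -0.181 in PGR_F 1 to 0.150 in Con_F 1.

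Genes of the interferon response lay above 0 more often than below it, and were highest in PGR_F 1. Interferons are released on sensing of viral nucleic acid and act through STAT and IRF factors, which bind interferon-stimulated response elements. Of 50 listed genes 42 were tested, 37 lay above 0 and 22 had an unadjusted p under 0.05 with the higher level in PGR_F, against 5.8% of all genes; none was lower at that level. Without Con_F 4 the count was 19 of 42 against 8.29% of all genes, and the groups did not overlap for 14 of 42 against 9.38% of all genes. With all 7 libraries the groups did not overlap for 5 of 42, against 4.17% of all genes. No member passed the adjusted threshold in either fit, and the list's median log2 difference was 0.48 with all 7 libraries and 0.51 without Con_F 4.

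The guanylate-binding GTPase gene Gbp2 had 0.329, 0.583, 0.502 and 0.740 CPM in Con_F and 2.37, 1.43 and 0.664 CPM in PGR_F. PGR_F 1 was highest, PGR_F 2 next and PGR_F 4 within the control range. The immunity-related GTPase gene Irgm2 showed the same order, with 3.64, 3.66, 3.44 and 5.82 CPM in Con_F and 19.1, 8.71 and 5.14 CPM in PGR_F. Irgm1 had 3.33, 3.66, 2.99 and 4.10 CPM in Con_F and 11.0, 5.36 and 3.93 CPM in PGR_F. The log2 differences without Con_F 4 were 1.63 ± 0.43 for Gbp2, 1.60 ± 0.43 for Irgm2 and 1.00 ± 0.31 for Irgm1 (edgeR adjusted p = 0.131, 0.151 and 0.168), and with it 1.44, 1.40 and 0.93. Samhd1, a nucleotide hydrolase that limits viral replication, had 10.3, 11.4, 12.2 and 12.4 CPM in Con_F and 18.7, 14.6 and 12.7 CPM in PGR_F, and its groups did not overlap.

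The class I antigen presentation list, which covers the chains, loading factors and immunoproteasome subunits that show peptides on the cell surface, had the same pattern over libraries. With all 7 libraries 7 of 21 members were higher at an unadjusted p under 0.05 and 0 were lower, against 5.8% and 5.15% of all genes. The counts without Con_F 4 were 9 and 0, against 8.29% and 7.24%. With all 7 libraries 0 of 21 members were higher without overlap of the groups, against 4.17% of all genes. Without Con_F 4 there were 4 of 21, against 9.38%. B2m, the light chain, had 2.39, 3.55, 3.30 and 6.53 CPM in Con_F and 14.0, 8.63 and 4.99 CPM in PGR_F. Con_F 4 was higher than PGR_F 4, and the other controls were lower than every PGR_F library. H2-K1, a heavy chain, had 4.11, 4.69, 3.8 and 6.53 CPM in Con_F and 14.9, 8.26 and 5.14 CPM in PGR_F. The peptide transporter gene Tap1 had 1.14, 1.49, 1.05 and 1.90 CPM in Con_F and 6.05, 2.65 and 1.82 CPM in PGR_F. The log2 differences without Con_F 4 were 1.57 ± 0.30 for B2m (edgeR adjusted p = 0.080), 1.48 ± 0.42 for Tap1 and 1.15 ± 0.34 for H2-K1, and with it 1.22, 1.30 and 0.97.

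The tested interferon response genes summed to 202.1, 214.8, 230.1 and 270.8 CPM in Con_F and 481.9, 309.1 and 252.4 CPM in PGR_F, so Con_F 4 exceeded PGR_F 4. Without PGR_F 1 the count of members at an unadjusted p under 0.05 dropped to 4 of 42 with the other 6 libraries (4.14% of all genes) and to 12 of 42 without Con_F 4 as well (7% of all genes), with medians of 0.26 and 0.30. The class I count without PGR_F 1 was 2 of 21, and 4 of 21 without Con_F 4 as well. The 16 lymphocyte markers summed to 1.16, 0.7463, 0.837 and 1.189 CPM in Con_F and 2.962, 1.081 and 1.242 CPM in PGR_F, highest in the library that was highest for these lists; only Ighm passed the filter. The 22 macrophage markers summed to 97.49 CPM in PGR_F 1 and to 82.04 to 98.94 CPM in the other 6. The part of these markers in the result was not tested. In bulk RNA of this kind, fewer cells of a type and less RNA per cell cannot be told apart.

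The upstream bases of B2m, Gbp2, Irgm2 and Irgm1 are shown because each holds a match to the interferon-stimulated core described next. No such match was found for Samhd1, Tap1 or H2-K1, which had the same order of PGR_F libraries. Not every gene had a promoter among those searched. RefSeq promoters (GRCm38.p6) were searched on both strands, over the 250 bases before the annotated start, for GAAANNGAA, the core of the interferon-stimulated response element, for ACANNNTGT, the core of the element bound by progesterone and glucocorticoid receptors, and for TTCNNNGAA, the core of the STAT site; matches may overlap, and a further match upstream of Irgm1, at -24, overlaps the one shown. Capitals mark the match, each sequence reads 5′ to 3′ on the strand of its gene, and a match on the other strand reads in its reverse complement.
B2m, chr2:122147437-122147686, plus strand, first base of the match at -139: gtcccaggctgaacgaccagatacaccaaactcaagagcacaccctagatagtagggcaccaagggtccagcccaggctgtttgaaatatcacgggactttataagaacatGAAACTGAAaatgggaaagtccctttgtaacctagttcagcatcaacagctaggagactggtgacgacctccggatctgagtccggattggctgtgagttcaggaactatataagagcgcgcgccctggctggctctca
Gbp2, chr3:142620595-142620623, plus strand, match on the other strand at -58: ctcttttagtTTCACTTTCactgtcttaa
Irgm2, chr11:58214903-58214931, plus strand, match at -64: tccaggaactGAAACTGAAagctgttcgg
Irgm1, chr11:48871432-48871460, minus strand, match at -30: cctgtttcaaGAAATAGAAaccgaaactg

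The interferon-stimulated core was found in 16 of 35 promoters of the interferon list (45.7%, 30 of 42 tested genes matched to the promoter table), in 4 of 21 promoters of the class I list (19.0%), and in 7.13% of all 32851 promoters in the table or 6.07% of those of tested genes. The STAT core was in 28.6% of the interferon list's promoters and in 5.89% of those of tested genes. Among genes that passed without Con_F 4, the progesterone and glucocorticoid core was in 1 of 9 promoters of those that rose and 1 of 12 of those that fell, against 3.83% for tested genes. The match among those that fell was upstream of Mafg and is shown as the only one of that direction.
Mafg, chr11:120633559-120633587, minus strand, first base of the match at -30: acgtgaccaaACATCATGTgacgtctgag
The 40 tested genes of the list of progesterone and glucocorticoid responses had this core in 5 of 51 promoters (9.8%). A match is a run of letters and not evidence of binding, and the absence of one covers only this window.

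Fatty acid uptake and oxidation genes, which code for the carriers and enzymes that bring fatty acids into mitochondria and break them down, lay mostly above 0. Of 40 listed genes 38 were tested. With all 7 libraries 9 were higher and 1 lower at an unadjusted p under 0.05, against 5.8% and 5.15% of all genes, and without Con_F 4 the counts were 19 and 1, against 8.29% and 7.24% of all genes; no member passed the adjusted threshold. The list's median log2 difference was 0.32 with all 7 libraries and 0.42 without Con_F 4. The tested members summed to 5389, 6104, 5773 and 7322 CPM in Con_F and 6623, 6526 and 8663 CPM in PGR_F. Con_F 4 exceeded PGR_F 1 and PGR_F 2, and the other controls were below every PGR_F library.

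Acadl, the long-chain acyl-CoA dehydrogenase, had 111, 148, 124 and 149 CPM in Con_F and 163, 153 and 199 CPM in PGR_F. The groups did not overlap, and PGR_F 4 was highest. Cpt2, the inner-membrane carnitine palmitoyltransferase, had 29.3, 33.3, 35.1 and 37.8 CPM in Con_F and 38.6, 39.8 and 52.9 CPM in PGR_F, again with no overlap and PGR_F 4 highest. Pnpla2, the lipase that opens triglyceride stores, had 22.2, 19.9, 18 and 25.7 CPM in Con_F and 23.7, 27.4 and 40.5 CPM in PGR_F. Without Con_F 4 the log2 differences were 0.43 ± 0.13 for Acadl, 0.43 ± 0.15 for Cpt2, 0.61 ± 0.18 for Pnpla2 and 0.70 ± 0.20 for the peroxisomal enzyme gene Ehhadh (edgeR adjusted p = 0.158, 0.200, 0.159 and 0.152), and with it 0.37, 0.37, 0.51 and 0.54. The fatty acid binding protein gene Fabp3 was at 0.85, the transporter Cd36 at 0.51 and the pyruvate dehydrogenase kinase Pdk4 at 2.22, each with an unadjusted p under 0.05 without Con_F 4, while the receptor Ppara was at -0.32. Only the fit without Con_F 4 is given for Fabp3, Cd36 and Pdk4, so their dependence on single libraries is not shown. Without PGR_F 4 the higher count dropped to 0 of 38 with the other 6 libraries, against 5% of all genes. Without Con_F 1 it was 3 of 38 with the other 6, against 4.22%. With Con_F 4 left out as well, the counts were 7 of 38 and 9 of 38. The share of all genes in those fits is not given here.

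Genes of glucose use lay mostly below 0. Of 29 tested glycolysis genes 22 lay below 0 with all 7 libraries, and 4 of them had an unadjusted p under 0.05, against 5.15% of all genes. The count without Con_F 4 was again 4, against 7.24%, with 1 higher. Pfkl, the liver-type phosphofructokinase, had 45.8, 35.3, 36.0 and 29.1 CPM in Con_F and 24.1, 29.3 and 26.2 CPM in PGR_F, with Con_F 4 just under PGR_F 2. Hexokinase 2 (Hk2) had 300, 252, 258 and 249 CPM in Con_F and 211, 232 and 204 CPM in PGR_F, with no overlap. Gpi1, which converts glucose 6-phosphate, had 219, 191, 207 and 158 CPM in Con_F and 141, 163 and 156 CPM in PGR_F. The log2 differences without Con_F 4 were -0.56 ± 0.11 for Pfkl, -0.32 ± 0.10 for Hk2 and -0.42 ± 0.09 for Gpi1 (edgeR adjusted p = 0.077, 0.176 and 0.089), and with it -0.46, -0.30 and -0.34. The list's count of lower members depended on PGR_F 2. With the other 6 libraries 14 of 29 were lower at an unadjusted p under 0.05, against 4.96% of all genes. The list's median log2 difference was -0.15 with all 7 libraries, -0.10 with the GC and length correction and -0.04 without PGR_F 1. Its tested members summed to 3338, 3072, 3093 and 3407 CPM in Con_F and 2798, 3351 and 3056 CPM in PGR_F, with PGR_F 2 above Con_F 1, 2 and 3.

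Of 45 tested nuclear genes of the respiratory chain 34 lay below 0 with all 7 libraries and 4 of these had an unadjusted p under 0.05, against 5.15% of all genes. Without Con_F 4 the count was 12, against 7.24%, with 1 higher, and the median log2 difference was -0.12. Ndufv1, the flavoprotein subunit of complex I, had 82.6, 71.0, 72.4 and 70.5 CPM in Con_F and 56.2, 66.9 and 63.9 CPM in PGR_F, with no overlap. Of 39 tested ribosomal protein genes 34 lay below 0, 5 of them at an unadjusted p under 0.05, against the same 5.15%, and none higher. Without Con_F 4, 35 lay below 0 and 10 were lower, against 7.24%. Rpl22 had 11.9, 11.4, 15.0 and 9.12 CPM in Con_F and 9.48, 8.42 and 8.68 CPM in PGR_F, so that Con_F 4 lay among the PGR_F libraries. The ribosomal list's median was -0.12 in both fits. Without PGR_F 1 the counts of lower members were 2 of 45 and 2 of 39 with the other 6 libraries, against 3.13% of all genes. With Con_F 4 left out as well they were 5 and 6, and the share of all genes in that fit is not given here.

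**Figure D4:**
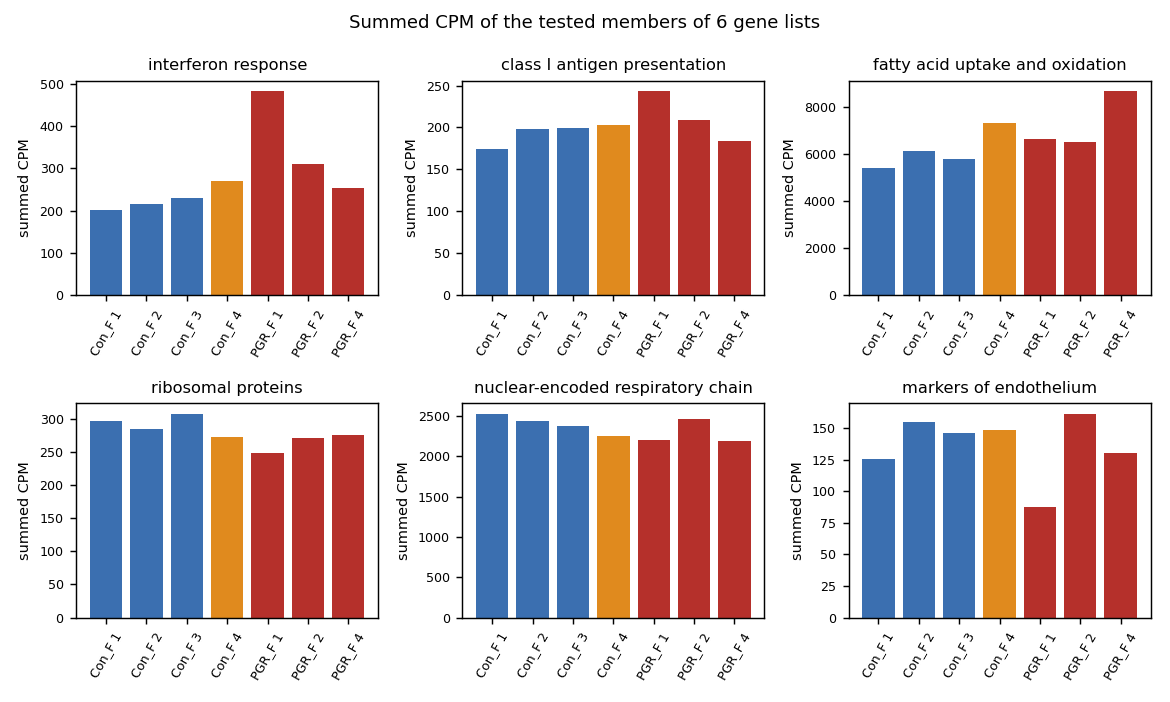
Summed CPM (y axis, from 0) of the tested members of 6 gene lists in each of the 7 female libraries (x axis), with Con_F 1 to 3 in blue, Con_F 4 in orange and PGR_F in red. PGR_F 1 is highest for the interferon list at 481.9 CPM and lowest for endothelial markers at 87.74 CPM, and PGR_F 4 is highest for fatty acid genes at 8663 CPM.

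Counts for genes of contraction and excitation are read against 5.8% of all genes higher and 5.15% lower with all 7 libraries, and 8.29% and 7.24% without Con_F 4. In the sarcomere and Z-disc list 3 of 32 tested genes were lower at an unadjusted p under 0.05 with all 7 libraries and 0 were higher, and without Con_F 4 the counts were 3 and 2. Cardiac troponin C (Tnnc1) had 118, 75.2, 94.4 and 85.8 CPM in Con_F and 57.5, 75.5 and 68.4 CPM in PGR_F, so PGR_F 2 was level with Con_F 2. Of 33 ion channel and gap junction genes 2 were higher and 2 lower with all 7 libraries, a share near that of all genes, and 4 and 2 without Con_F 4. The inward rectifier gene Kcnj2 had 50.7, 56.0, 53.4 and 53.7 CPM in Con_F and 65.7, 65.3 and 65.6 CPM in PGR_F, without overlap (log2 difference 0.29 ± 0.08 with all 7 libraries and 0.30 ± 0.09 without Con_F 4, edgeR adjusted p = 0.302 and 0.158). Phospholamban (Pln), the brake on the calcium pump, had 796, 805, 625 and 876 CPM in Con_F and 957, 960 and 882 CPM in PGR_F, also without overlap. Among genes tied to the fetal state and hypertrophy 2 of 20 were lower and 0 higher in both fits, and Acta1, the skeletal actin of the fetal heart, had 3.88, 2.66, 2.08 and 4.02 CPM in Con_F and 1.34, 3.18 and 2.31 CPM in PGR_F.

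Genes known to respond to progesterone or glucocorticoids elsewhere had counts near the share of all genes with all 7 libraries. Of 50 listed genes 40 were tested, 2 were higher and 1 lower at an unadjusted p under 0.05 with all 7 libraries, against 5.8% and 5.15% of all genes, and the counts without Con_F 4 were 5 and 2, against 8.29% and 7.24%. The list's median log2 difference was -0.08 in both fits. Greb1, a classical steroid receptor target, had 4.49, 2.94, 3.78 and 4.73 CPM in Con_F and 6.46, 7.87 and 4.87 CPM in PGR_F, without overlap, and a log2 difference of 0.77 ± 0.35 without Con_F 4 and 0.68 ± 0.31 with it (edgeR adjusted p = 0.318 and 0.456). The prolactin receptor gene Prlr had 28.3, 31.7, 37.1 and 44.8 CPM in Con_F and 62.0, 46.0 and 39.0 CPM in PGR_F, so Con_F 4 exceeded PGR_F 4. Among receptors and their helpers Fkbp4 had 31.6, 32.4, 37.3 and 32.5 CPM in Con_F and 20.9, 28.9 and 25 CPM in PGR_F. All PGR_F libraries were below all controls for Fkbp4, and the log2 difference was -0.42 ± 0.11 with all 7 libraries and -0.43 ± 0.12 without Con_F 4 (edgeR adjusted p = 0.302 and 0.140). The histone methyltransferase gene Kmt2d was at -0.36 with all 7 libraries and -0.40 without Con_F 4.

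Several single genes separated the groups with and without Con_F 4 although none passed with all 7 libraries. Tissue factor pathway inhibitor (Tfpi), which blocks the start of coagulation, had 57.2, 62.2, 57.6 and 56.0 CPM in Con_F and 81.8, 76.6 and 71.7 CPM in PGR_F. Its log2 difference was 0.40 ± 0.07 with all 7 libraries and 0.38 ± 0.08 without Con_F 4 (edgeR adjusted p = 0.133 and 0.0775). Plscr2, of the phospholipid scramblase family, had 93.6, 91.4, 71.4 and 81.8 CPM in Con_F and 138, 116 and 106 CPM in PGR_F. Esrra, the nuclear receptor that drives mitochondrial genes, had 128, 120, 146 and 117 CPM in Con_F and 100, 92.2 and 107 CPM in PGR_F, and Hey2, a Notch-driven repressor of the compact ventricular wall, had 6.10, 7.23, 7.13 and 8.43 CPM in Con_F and 9.08, 10.4 and 8.76 CPM in PGR_F. Pcna, the replication clamp, had 1.30, 1.42, 1.48 and 1.53 CPM in Con_F and 1.97, 2.61 and 2.25 CPM in PGR_F. With all 7 libraries it was the only 1 of 34 tested cell cycle genes at an unadjusted p under 0.05 in edgeR's test. That is 2.94%, against 5.8% of all genes higher. Without Con_F 4, 3 of the 34 were higher at that level, 8.82% against 8.29% of all genes. The list was thus below or near the share of all genes. Below the controls lay Dok7, an activator of the muscle-specific kinase MuSK, with 149, 124, 134 and 122 CPM in Con_F and 81.8, 101 and 101 CPM in PGR_F, and Ubtf, the factor that keeps ribosomal DNA open, with 33.5, 29.8, 32 and 29.5 CPM against 22.5, 23.5 and 24.9 CPM. Slc40a1, the iron exporter ferroportin, had 3.69, 6.14, 4.50 and 9.49 CPM in Con_F and 8.17, 9.16 and 11.2 CPM in PGR_F, so its groups separated only with Con_F 4 left out.

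Immediate early genes divided the PGR_F libraries. Fos had 0.554, 0.957, 1.36 and 2.49 CPM in Con_F and 0.842, 7.16 and 7.74 CPM in PGR_F, and Atf3 had 3.43, 3.08, 3.73 and 6.27 CPM in Con_F and 3.40, 16.6 and 13.2 CPM in PGR_F. PGR_F 2 and 4 were high and PGR_F 1 was within the control range for both. Of 22 tested members of this list 2 were higher and 1 lower at an unadjusted p under 0.05 with all 7 libraries, against 5.8% and 5.15% of all genes, and 3 and 1 were without Con_F 4, against 8.29% and 7.24%. Without PGR_F 1 the count of higher members was 9, against 4.14% of all genes. The list's median was 0.23 with all 7 libraries and -0.01 without PGR_F 2. The orphan nuclear receptor gene Nr4a1 followed, with 53.3, 37.3, 31.6 and 59.0 CPM in Con_F and 47.3, 168 and 128 CPM in PGR_F. The clock-controlled repressor Ciart had 12.7, 4.06, 0.431 and 0.291 CPM in Con_F and 0.717, 1.14 and 0.136 CPM in PGR_F, a spread within the control group wider than the difference between the groups. Of 21 tested clock genes 0 had an unadjusted p under 0.05 in edgeR's test in either fit.

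Markers of other cells in the heart were compared in the same way. Of 27 endothelial markers 24 lay below 0 with all 7 libraries and 1, Robo4, was lower at an unadjusted p under 0.05, against 5.15% of all genes; without Con_F 4 the counts were 20 and 0; PGR_F 1 had the lowest summed level, 87.7 CPM, against 125.5 to 161.3 CPM in the other 6. Fibroblast and matrix markers summed to 214.3, 293.6, 320.8 and 325.7 CPM in Con_F and 166.9, 346 and 271 CPM in PGR_F, with 0 of 27 tested members at an unadjusted p under 0.05 in edgeR's test in both fits. PGR_F 1 was again lowest.

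**Figure D5:**
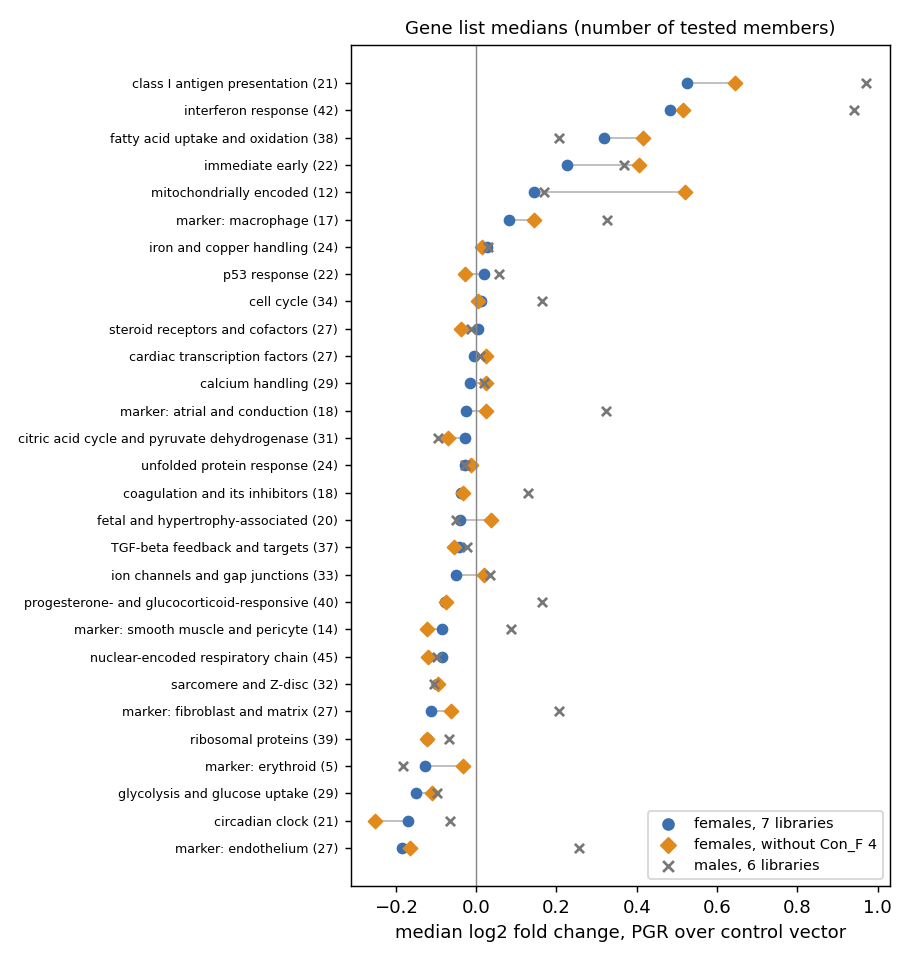
Median log2 fold change (x axis) of the tested members of each gene list with at least 5 of them (y axis, number of tested members in brackets), in females with all 7 libraries (circles), in females without Con_F 4 (diamonds) and in males (crosses). In females with all 7 libraries the class I, interferon and fatty acid lists are farthest above 0, at 0.53, 0.48 and 0.32, and endothelial markers farthest below, at -0.18.

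The series asks whether the effect of the PR vector depends on sex, and the difference between the sexes was tested as the interaction of vector and sex. No gene passed with all 13 libraries (0 of 16125, with 525 or 3.26% at an unadjusted p under 0.05) or without Con_F 4 (0, with 566 or 3.51%); DESeq2 called 1 and 2 genes, and the smallest adjusted p in edgeR was 0.737 and 0.997. Across the 16125 genes the log2 differences of females and males had a Pearson correlation of 0.31, or 0.35 without Con_F 4; genes are not independent and the values share 1 normalization. Of the 20 called genes 18 had the same sign in males, as did 10447 of all 16125, and 8 of them also had an unadjusted p under 0.05 in males, where 3.53% of all genes were higher, 3.94% lower and 7.48% either at that level and 0 passed the adjusted threshold. For the difference between the sexes without Con_F 4, 15 of the 20 had an unadjusted p under 0.05, against 3.51% of all genes; the female libraries that chose the 20 enter this difference. Pmepa1 was at -0.51 in both sexes without Con_F 4, and Tnnt1 was at -0.86 in females and -0.70 in males.

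Tfpi gave the smallest unadjusted p for the difference among named genes, with 0.40 in females (all 7 libraries) and -0.12 in males, a difference of 0.52 ± 0.10 (edgeR unadjusted p = 0.00017, adjusted p = 1.00). Akt1 was at -0.60 in females without Con_F 4 and at 0.11 in males, a difference of -0.71 ± 0.15 (adjusted p = 0.997). Ccdc146 was at 0.56 and -0.11, a difference of 0.67 ± 0.13, also without Con_F 4. The G-protein subunit gene Gng2 was at 0.13 ± 0.22 in females and at 1.26 ± 0.24 in males, a difference of -1.13 ± 0.33 with all 13 libraries. The interferon and class I medians were larger in males, 0.94 and 0.97, than the 0.48 and 0.53 of females, and the fatty acid median was 0.21 in males and 0.32 in females; these list differences were not tested.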

How the data were processed

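Nuclear RNA of 13 libraries was analysed, the 7 female ones in detail. Values are whole-number counts of reads for each gene, as the authors deposited them. STAR 2.5.3a, featureCounts 1.5.0 and GRCm38/mm10 appear, without a role, in the submitters' processing notes. Per the file headers each gene is counted over 1 interval, introns included, since its length equals end minus start plus 1 in all 55536 genes. The smaller deposited table holds 15645 genes, those whose mean count reaches 10, and its values are identical.

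Genes passing edgeR's filterByExpr (16125) were scaled by TMM and fitted with edgeR 4.0.16 (R 4.3.3), with 4 group means over 13 libraries or 12 without Con_F 4, robust quasi-likelihood tests and Benjamini-Hochberg adjustment over all genes. limma 3.58.1 and DESeq2 1.42.0 were alternatives. In simulated counts the 13-library fit recovered 54 of 100 changes of 1.5-fold and 94 of 100 of 2-fold. Without Con_F 4 it recovered 48 and 92, with 6 false calls in each fit. The simulation held no GC slope and no library that stood apart, so it does not cover those features of the data. CPM are scaled to TMM library sizes. ± is a standard error unless stated. Genes were matched to GENCODE M21 (GRCm38) by identifier, and GC content came from the longest transcript.

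Named genes were check genes, the 12 smallest p per direction and fit with a mean log2 CPM of at least 1, all past an adjusted p of 0.05 without Con_F 4, the 5 per direction for the difference between the sexes, and up to 4 per list by p; predicted and clone-named genes were left out. Further list members are given from the lists. The members and the 32 lists were chosen with earlier results of these data known.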

Additional observations from a re-analysis of the deposited data

Results flagged for a closer look

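In the 4 control libraries, single libraries lay far from the other 3 for 12 of 165 named genes looked at, and chance does this in about 1 in 20 groups. Con_F 1 was highest for Jph2 (1222 CPM against 691 to 753), Mn1 (66.1 against 38.3 to 42.4), Ndufv1 (82.6 against 70.5 to 72.4), Sdhb (115 against 93.6 to 97.0) and Stxbp2 (7.83 against 6.87 to 7.03). Con_F 4 was highest for Irgm2 (5.82 against 3.44 to 3.66), Rrm2 (0.264 against 0.104 to 0.120) and Wdr17 (1.00 against 0.554 to 0.622) and lowest for Tnfrsf25 (0.952 against 1.58 to 1.68). Con_F 3 was highest for Fkbp4 (37.3 against 31.6 to 32.5) and Myom2 (1096 against 921 to 930), and Con_F 2 lowest for Ltbp3 (28.8 against 35.9 to 37.0).

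Among 38 other measures of the control libraries, the Y-linked share of Con_F 4 stood out (1.03% of the male level against 0.0115 to 0.0952%). So did the mean log2 CPM of calcium handling genes in Con_F 4 (7.34 against 7.20 to 7.22), of respiratory chain genes in Con_F 1 (5.12 against 4.98 to 5), of fibroblast and matrix markers in Con_F 1 (2.18 against 2.60 to 2.67), and of the 4 tested epicardial, adipocyte and Schwann cell markers in Con_F 2 (1.12 against 0.46 to 0.52). Mouse Pgr, under the filter and so in no comparison across genes, summed to 12 counts in the PGR_F libraries against 4 in Con_F.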

How the results depend on the processing

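With all 7 female libraries the count of called genes (0 in edgeR) was 81 in DESeq2, 25 with no filter on low counts, 1 with a mean of at least 50 counts and 0 in the other alternatives; leaving out each library gave 0 to 20, with 20 for Con_F 4. Without Con_F 4 the count of 20 became 395 in DESeq2 (19 of the 20 included), 290 with no filter, 45 with library totals, 8 with female libraries only and 7 in limma-voom, and leaving out a further library gave 0 to 26. The labels do not say whether the same replicate numbers pair the libraries. The correlation of same-numbered deviations in females was -0.115, -0.0345 and 0.0496, against -0.144 to 0.159 for different numbers. In males it was -0.0511, -0.245 and -0.00142, against -0.114 to 0.192. With so few libraries these values cannot decide whether the numbers mark pairs. With the replicate number as a block, 0 genes were called with all 7 libraries and 3 without Con_F 4, also 3 with the GC and length correction added, and 0 of these were among the 20. A number held by only 1 group adds nothing to the comparison in that fit. Without Con_F 4 this took out Con_F 3 and PGR_F 4 and left libraries 1 and 2 of each group. The block fit is therefore not a like-for-like check of the 20. The difference between the sexes (0 in both fits) was 1 in DESeq2 and 1 with no filter, and 2 and 2 without Con_F 4; leaving out each library gave 0 to 0. Among single genes, signs changed for 6, none of which passed: Plin1 (0.25 in limma-voom, 0.0246 with GC correction, and -0.47 to 0.73 with each library left out), Hbb-bs (0.0432 in limma-voom, and -0.35 to 0.16 with each library left out), Hbb-bt (-0.41 to 0.0293), Alas2 (-0.48 to 0.31), Pcm1 (-0.000111 with GC correction and block) and Xist (-0.29 to 0.0403, and without Con_F 4 0.0145 with the replicate block and -0.31 to 0.0215). Of the list medians, 7 values with all libraries and 13 without Con_F 4 moved by more than the standard deviation of the list between libraries of a group. Where no value above shows the cause of a change, the cause was not tested. Depth limits genes such as Pgr, with at most 6 counts in a female library.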
